A study of Rattus norvegicus with 12 samples.

Results

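Amino acid transporters of the hepatocyte plasma membrane were followed in rat liver across the sexes, after removal of the pituitary and after growth hormone (GH) injection. The group holds 8 genes: Slc3a1, Slc3a2, Slc7a2, Slc38a2, Slc38a3, Slc38a4, Slc1a2 and Slc6a6. They were chosen by symbol from general knowledge of liver, with earlier results of these data known. Of 35581 gene names on the arrays these are 8, carried by 10 of 41012 distinct probes. Slc38a2 and Slc1a2 have 2 probes each, the other genes 1, and a gene was called by the probe that was brightest over all arrays.

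The study compared liver RNA of Fischer 344 rats aged 12 weeks on 12 Agilent oligonucleotide arrays, each read in 2 colours. There were 6 kinds of RNA, from untreated intact animals of either sex, from hypophysectomised animals of either sex, and from hypophysectomised males that received GH by 1 or by 2 injections. Hypophysectomy removes the pituitary, so the animals given GH lacked the other pituitary hormones just as their controls did. The first 4 RNAs were pools of 3 to 4 livers, with a different pool on each array of a dye swap. The 1-injection RNA was a single pool made from 4 animals killed 30, 60 or 90 min later, and for the 2-injection RNA, a single pool from 5 animals, the injections were spaced 3 or 4 h apart. Each GH pool was used on both of its arrays, so the 2 arrays of a GH comparison share their treated RNA. The dose of GH and the time since surgery are not given in the sources used here. On 1 array of the 1-injection comparison the sample's description leaves the hormone out, and its title was used.

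Hepatocytes take up amino acids from portal blood for protein synthesis, gluconeogenesis and urea production, and release others, through carriers with overlapping substrates. Sodium-coupled carriers (Slc38a2 and Slc38a4 of system A, Slc38a3 of system N) move small neutral amino acids and glutamine. Slc7a2 carries the cationic amino acids arginine, lysine and ornithine. Slc1a2 takes up glutamate, and Slc6a6 takes up taurine, which the liver joins to bile acids. Slc3a1 and Slc3a2 are heavy chains without transport activity of their own, which bring light-chain exchangers of the Slc7 family to the membrane. GH is secreted in pulses in male rats and more evenly in female rats, and acts on hepatocytes through its receptor and STAT5.

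Each ratio is the log2 value of the RNA named first relative to the other, with its SE (±) as limma fitted it to 2 arrays a comparison. Genes with an adjusted p under 0.05 were called. The replicate arrays differ by their pools, or for GH by the hybridisation of 1 treated pool and by the control pool. The SE joins the spread of all 12 arrays, so for GH it does not measure variation between treated pools. In liver RNA, fewer cells of a type and less RNA per cell cannot be told apart. All 8 hepatocyte markers examined, among them Alb, Ttr and Cps1, were well above background in all 24 channel readings (12 arrays in 2 colours). Depending on the array and dye, 58.4% to 71.1% of probes passed that flag, and no spot was saturated. Of the 8 hepatocyte markers, 0 rose and 2 fell after hypophysectomy in males, against 19% and 18.5% of all probes. In females 1 rose and 1 fell, against 17.9% and 18.5%. After 1 GH injection 1 rose and 0 fell, against 7.49% and 6.79%. After 2 injections 3 rose and 0 fell, against 15% and 15.8%. Between the intact sexes 2 were higher in males and 0 lower, against 8.07% and 7.42%.

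Of the 8 transporters, 2 were called between intact males and females, both higher in males, where 15.5% of all probes tested were called (8.07% higher and 7.42% lower). Hypophysectomy in males called 6 of 8, with 3 higher and 3 lower, against 37.5% of all probes (19% higher, 18.5% lower). In females it called 5 of 8, with 4 higher and 1 lower, against 36.3% (17.9% and 18.5%). Between hypophysectomised males and hypophysectomised females limma called 0 of 8 (1 at an unadjusted p under 0.05), against 0.949% (0.53% and 0.419%). GH given once called 4 of 8, with 2 higher and 2 lower, against 14.3% (7.49% and 6.79%), and GH given 2 times called 5 of 8, with 2 higher and 3 lower, against 30.8% (15% and 15.8%). The genes were called in both directions in each hypophysectomy and GH comparison. After hypophysectomy the median was -0.03 in males, where all probes had 0.01, and 0.30 in females, where all probes had 0.00. With GH it was -0.04 after 1 injection and -0.02 after 2, where all probes had -0.00 and -0.01. With each array centred on its median in place of loess, 26 of the 27 called values, those of the differences between responses included, kept their direction and 18 stayed within 1.5 times their size. The SE was larger, 0.264 to 0.503 where it had been 0.0589 to 0.264, and 25 lost their call, all but Slc3a1 after hypophysectomy in each sex. The 9 values that moved by more are given with their results.

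**Figure D1:**
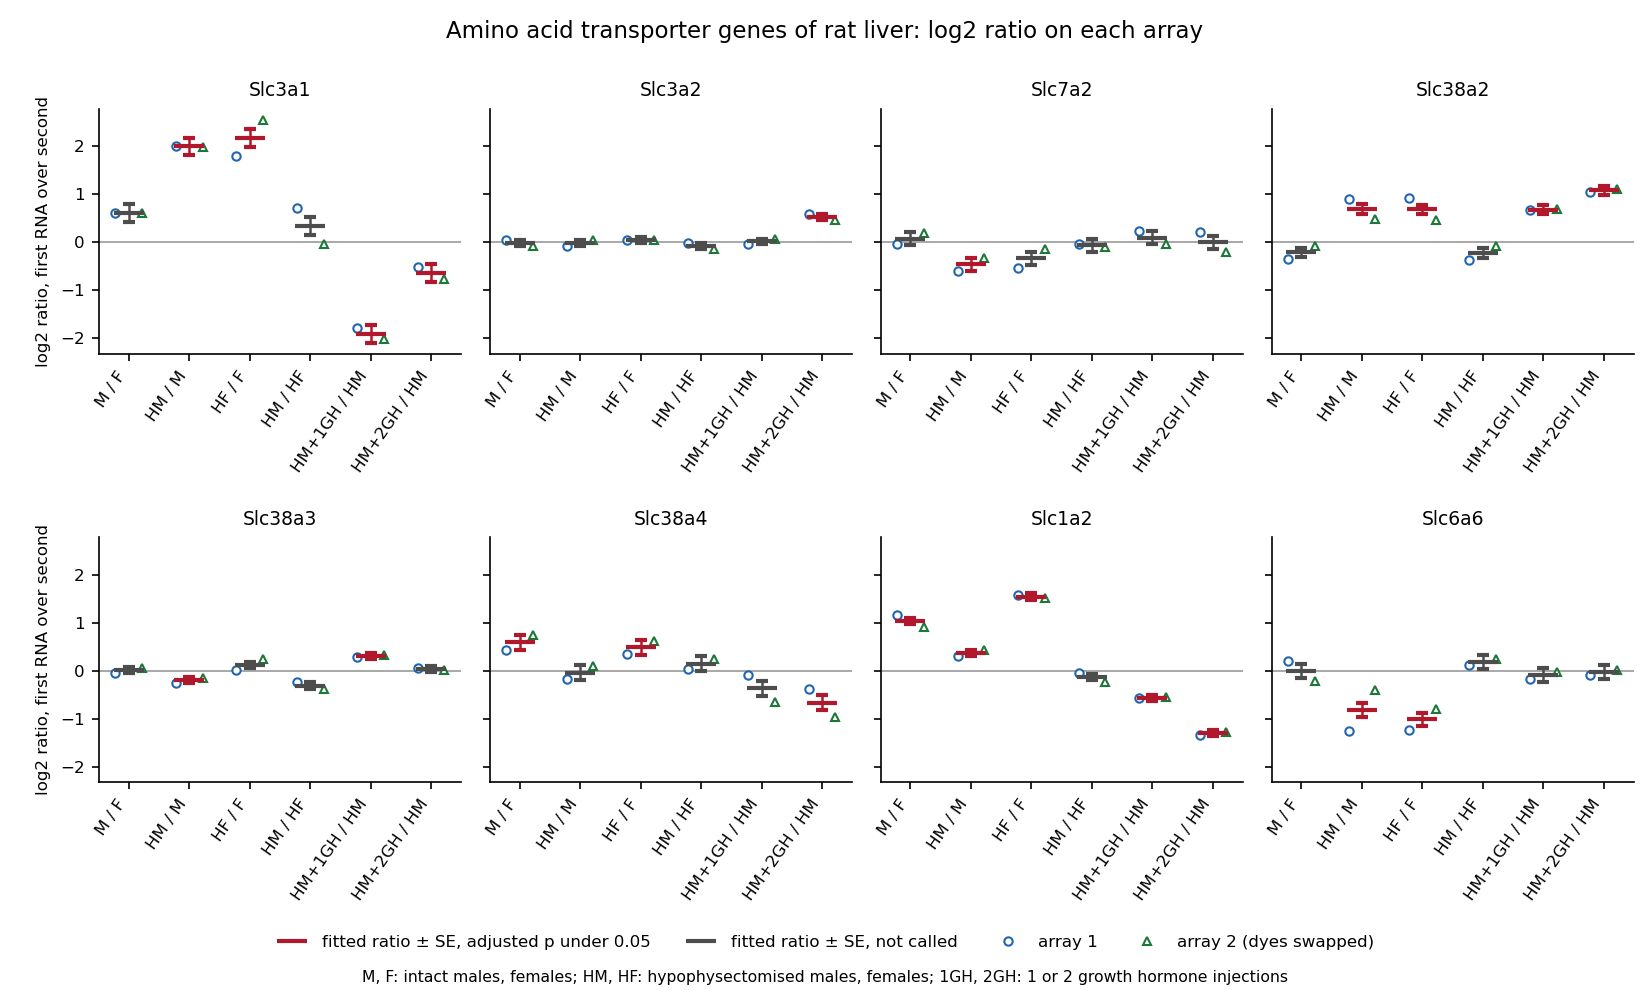
Log2 ratio (y axis) of the 8 transporters in the 6 comparisons (x axis), as the value on each of the 2 dye-swapped arrays (circle and triangle) and as the fitted ratio ± SE (bar, red where called at an adjusted p under 0.05). Slc3a1 and Slc1a2 lie above 0 after hypophysectomy and below 0 after GH. The brighter Slc38a2 probe lies above 0 after both, and Slc3a2 is called after 2 GH injections alone.

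Slc3a1, which encodes the heavy chain rBAT of the cystine and dibasic amino acid exchanger, had the largest ratios of the group. Its probe lies at chr6:8419020-8419079 (plus strand, coordinates as in the array files, which name no build). Single-channel log2 levels were 6.34, 6.38, 6.95 and 6.96 in intact females, of which the first 2 were not well above background, and 6.94, 6.98, 7.20 and 7.39 in intact males. They were 8.51, 8.75, 9.49 and 9.52 in hypophysectomised females. In hypophysectomised males the lowest, median and highest of 8 readings were 9.20, 9.37 and 9.66. They were 7.58 and 7.61 after 1 GH injection and 8.82 and 8.89 after 2. The intact livers were thus lowest, with the readings of the sexes overlapping, the 1-injection pool lay above them, and the hypophysectomised livers were highest. The 2-injection pool lay below all hypophysectomised male readings and within the range of the hypophysectomised females.

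Hypophysectomy raised Slc3a1 by 1.99 ± 0.19 in males (2.01 and 1.98 on the 2 arrays, adjusted p = 0.000152, 3.98-fold). In females it rose by 2.17 ± 0.19 (1.80 and 2.54, adjusted p = 0.000102, 4.50-fold). These values differed between the sexes by -0.22 ± 0.19 (males minus females, adjusted p = 0.503). Slc3a1 fell with 1 GH injection (-1.90 ± 0.19, -1.79 and -2.01 on the arrays, adjusted p = 0.000638, 3.74-fold). After 2 injections it was -0.65 ± 0.19 (-0.53 and -0.77, adjusted p = 0.0307), a call that was lost without the first array (-0.89 ± 0.27, adjusted p = 0.0745) or the second (-0.40 ± 0.27, adjusted p = 0.411). The difference between 2 injections and 1 was 1.26 ± 0.26 (adjusted p = 0.0224), through the hypophysectomised male RNA that both comparisons share. That call was lost without any 1 of its 4 arrays (1.01 to 1.50, adjusted p 0.0576 to 0.177). The ratio of intact males to intact females was 0.60 ± 0.19 (1.52-fold) and was not called (adjusted p = 0.0662). Female RNA was not well above background on either array of that comparison (means 6.96 in males and 6.36 in females). The 2 hypophysectomised sexes had ratios of 0.71 and -0.04 on the 2 arrays, a spread larger than their mean of 0.34 (adjusted p = 0.482).

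Some markers of bile duct cells rose after hypophysectomy, as Slc3a1 did. Of 6 tested, 3 rose in each sex and 3 were not called. Of all probes, 19% rose and 18.5% fell in males, and 17.9% rose and 18.5% fell in females. The risers were Krt19 (1.89 ± 0.49 in males, 1.69 ± 0.49 in females), Epcam (1.82 ± 0.14 and 1.75 ± 0.14) and Sox9 (0.68 ± 0.12 and 0.36 ± 0.12), all 3 genes of the duct epithelium. The summed intensity of the 7 listed markers was 2390 to 2770 in intact males, 2600 to 2970 in intact females, 6600 to 9860 in hypophysectomised males and 7390 to 7880 in hypophysectomised females. With GH it was 4910 to 5270 after 1 injection and 5990 to 6320 after 2. Of 7 tested, 1 fell after 1 injection, Epcam (-0.58 ± 0.14), against 6.79% of all probes. After 2 injections limma called 0 of 7 (1 at an unadjusted p under 0.05), against 30.8%. The channel protein gene Cftr was the dimmest of them, well above background in 9 of 24 readings. Endothelial markers rose for 5 of 7 tested in males and 5 of 6 in females, by at most 0.55 ± 0.06 (Tek in males), with sums of 25100 to 36200 in the intact and 32500 to 45700 in the hypophysectomised livers. Of 7 lymphocyte markers tested 3 rose in each sex. Of 7 stellate cell markers 2 rose and 3 fell in males, and 2 fell in females. Of the pancreas markers 1 of 3 tested rose in males, and 1 of 5 rose and 1 fell in females, with sums of 8480 to 27100 in hypophysectomised males, 12500 to 16500 in intact males, 8960 to 10700 in hypophysectomised females and 19600 to 20300 in intact females. The part of these cells in the change of Slc3a1 was not tested.

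The 250 bases before a transcription start of Slc3a1 that RefSeq lists (GRCr8, chr6:15394750-15394999, minus strand) are shown because the gene rose in both sexes without a pituitary and fell with GH. Slc1a2, and Slc38a2 on its brighter probe, also changed with both treatments. The 250 bases before the first listed start of Slc1a2 (chr3:109459859-109460108, plus strand) and those of Slc38a2 (chr7:129742620-129742869, minus strand) are therefore set beside them. Each is written 5′ to 3′ with the CpG dinucleotides in capitals.
Slc3a1: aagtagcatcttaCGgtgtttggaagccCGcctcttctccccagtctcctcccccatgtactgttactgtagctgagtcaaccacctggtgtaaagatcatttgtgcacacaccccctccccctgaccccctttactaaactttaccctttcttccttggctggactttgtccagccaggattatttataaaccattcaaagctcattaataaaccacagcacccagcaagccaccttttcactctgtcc
Slc1a2: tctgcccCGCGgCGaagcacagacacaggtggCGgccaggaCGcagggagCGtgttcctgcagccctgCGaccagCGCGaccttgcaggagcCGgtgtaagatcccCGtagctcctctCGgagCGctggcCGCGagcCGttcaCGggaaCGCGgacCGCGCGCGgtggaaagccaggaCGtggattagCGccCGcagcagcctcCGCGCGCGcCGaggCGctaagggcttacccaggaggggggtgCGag
Slc38a2: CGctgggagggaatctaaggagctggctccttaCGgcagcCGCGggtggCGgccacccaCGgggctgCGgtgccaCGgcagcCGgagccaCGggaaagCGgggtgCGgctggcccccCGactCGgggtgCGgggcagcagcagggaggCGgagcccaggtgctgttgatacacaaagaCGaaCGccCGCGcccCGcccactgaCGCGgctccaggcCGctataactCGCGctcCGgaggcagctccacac
The Slc3a1 window holds 2 CpG, the Slc1a2 window 33 and the Slc38a2 window 27, where the median of 33469 such rat windows is 5. A second start of Slc1a2 has a window with 2 CpG. The Slc3a1 probe lies on the plus strand in the array files, and the listed Slc3a1 start on the minus strand of GRCr8. For the other genes with a window, probe and start lie on the same strand. Why those of Slc3a1 differ was not tested. The letters TTCNNNGAA, the core that STAT proteins bind, were searched on both strands and are in none of the 8 windows that the table gives for 6 of these genes, nor are the letters TTGCATCA, the core of the amino acid response element. Of all windows, 7.67% hold the first and 0.693% the second. Slc7a2 and Slc38a3 were named only.

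Slc3a2, the heavy chain that pairs with Slc7a5, Slc7a7 and Slc7a8, changed in 1 setting, after 2 GH injections. Its log2 levels spanned 11.83 to 12.16 in intact females, 11.84 to 12.08 in intact males, 11.71 to 11.97 in hypophysectomised females and 11.70 to 12.13 in hypophysectomised males. These 4 ranges overlap, as do the readings of 11.95 and 12.12 after 1 injection. After 2 injections both readings were 12.60, above every other. The ratio to hypophysectomised males was 0.59 and 0.47 on the 2 arrays, or 0.53 ± 0.06 (adjusted p = 0.000298, 1.44-fold), and 0.02 ± 0.06 after 1 injection. The other 4 ratios lay between -0.07 and 0.04. Between 2 injections and 1 the difference was 0.51 ± 0.08 (adjusted p = 0.00864), and without the first 2-injection array (0.41 ± 0.09), the first 1-injection array (0.49 ± 0.11) or the second (0.53 ± 0.11) it was not called (adjusted p 0.0627 to 0.088). Under median centring the 2-injection value was 0.12 ± 0.34 (adjusted p = 0.891) and the difference 0.17 ± 0.49 (adjusted p = 0.999).

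Among the light chains, Slc7a9, the partner of Slc3a1, was well above background in 21 of 24 readings and was not called in any of the 6 comparisons. Among partners of Slc3a2, Slc7a11 was well above background in 2 readings, Slc7a6 in 1 and Slc7a10 in 21. Slc7a5, the exchanger of large neutral amino acids, was lower in intact males than in intact females (-0.34 ± 0.06, adjusted p = 0.00549). Slc7a7, the exchanger of the y+L system, was lower too (-0.41 ± 0.09), higher after hypophysectomy in males (0.38 ± 0.09) and higher after 1 GH injection (0.43 ± 0.09). Slc7a8 was not called in any of the 6. Each of these calls of Slc7a5 and Slc7a7 was lost when 1 of its arrays was left out (adjusted p up to 0.301).

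**Figure D2:**
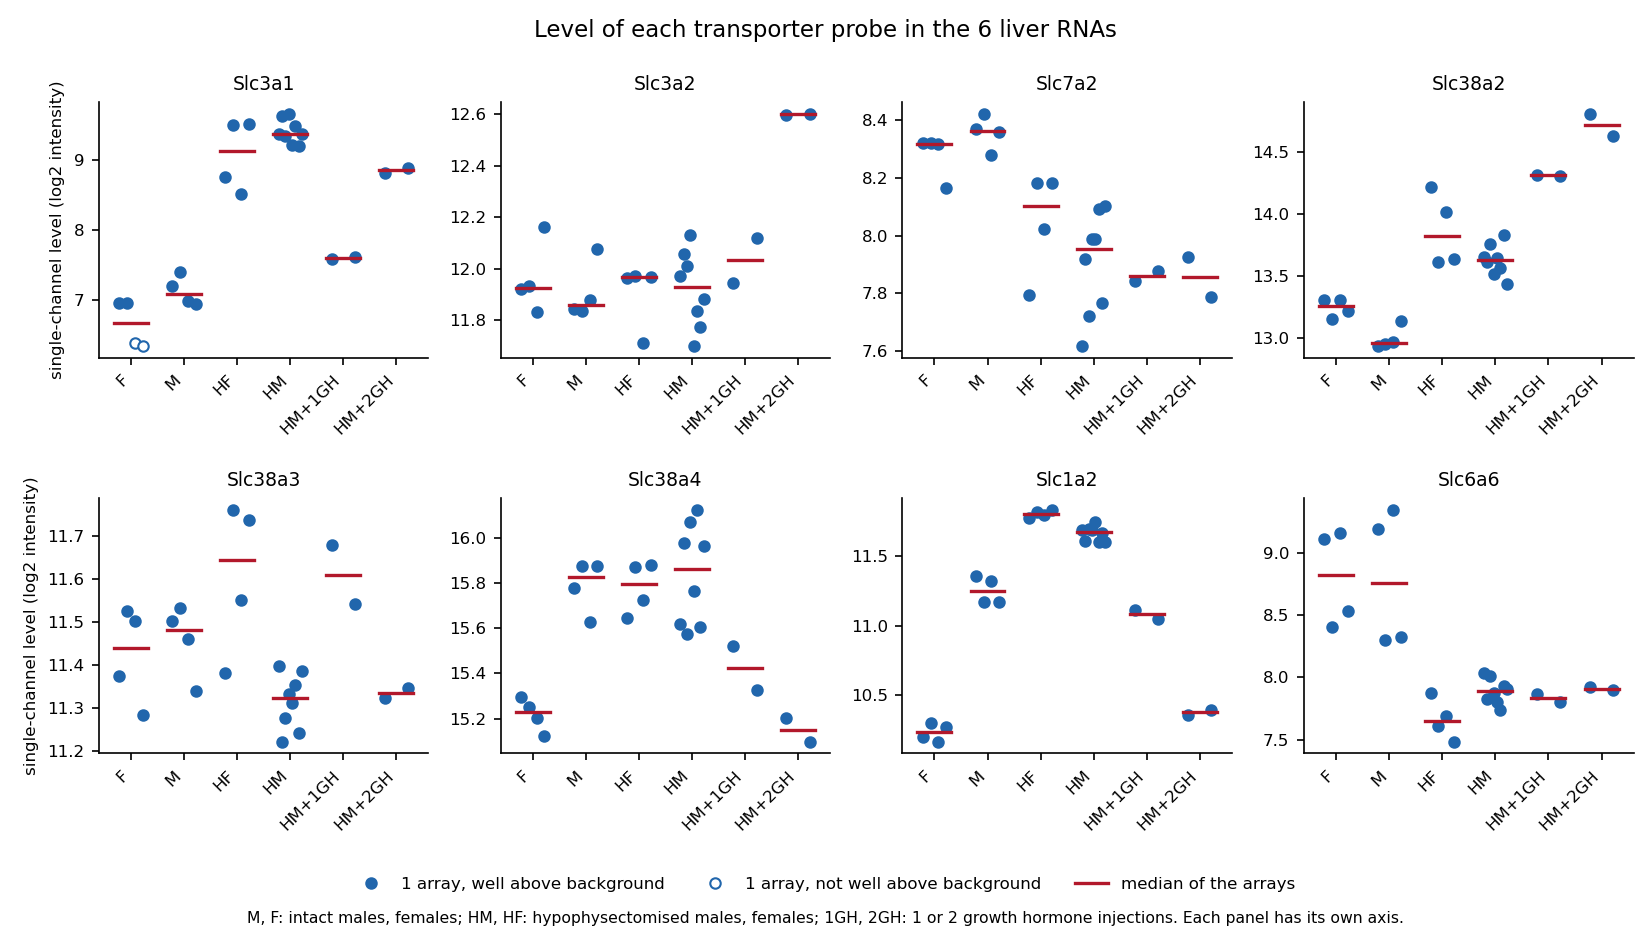
Single-channel log2 intensity (y axis) of the brightest probe of each transporter in the 6 liver RNAs (x axis), 1 point per array, open where the probe was not well above background, with the median as a line. Slc1a2 falls into 6 levels that do not overlap, and Slc6a6 in the intact livers falls into a higher and a lower set of readings in each sex.

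Slc1a2, which encodes the glutamate transporter GLT-1 of brain astrocytes and of the hepatocytes around the central vein, varied with sex, hypophysectomy and GH. Its log2 levels were 10.17, 10.20, 10.27 and 10.30 in intact females and 10.36 and 10.40 after 2 GH injections. They were 11.05 and 11.11 after 1 injection and 11.17, 11.17, 11.32 and 11.36 in intact males. In hypophysectomised males the lowest, median and highest were 11.60, 11.67 and 11.74, and in hypophysectomised females the readings were 11.77, 11.79, 11.81 and 11.83. No reading of one RNA reached into the range of the next, although the neighbours differ by less than 0.1 between intact females and 2 injections, between 1 injection and intact males, and between the hypophysectomised sexes. Of those 3 pairs only the last was hybridised together, and its ratio of -0.14 ± 0.06 was not called (adjusted p = 0.387).

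Intact males had more Slc1a2 RNA than intact females, with ratios of 1.15 and 0.90 on the 2 arrays (1.03 ± 0.06, adjusted p = 2.37e-05, 2.04-fold). Hypophysectomy raised it in both sexes, by 1.54 ± 0.06 in females (1.57 and 1.51, adjusted p = 2.26e-06, 2.91-fold) and by 0.37 ± 0.06 in males (0.30 and 0.43, adjusted p = 0.00286, 1.29-fold). The difference between the 2 responses, males minus females, was -1.17 ± 0.06 (adjusted p = 1.86e-05). That SE may be too small, since the 2 estimates behind it share their kinds of RNA. Slc1a2 fell with GH in hypophysectomised males, by -0.57 ± 0.06 after 1 injection (-0.57 and -0.56, adjusted p = 0.00119). After 2 injections it was -1.31 ± 0.06 (-1.33 and -1.29, adjusted p = 6.42e-06). The 2-injection value was the lower by -0.74 ± 0.09 (adjusted p = 0.0027). Without the second array the 1-injection value was -0.52 ± 0.10 (adjusted p = 0.0521). Under median centring the rise in hypophysectomised males was 0.59 ± 0.32 (adjusted p = 0.508). Of these genes, 2 were called for the sex difference of the hypophysectomy response, both negative (Slc1a2 and Slc38a3), against 13.5% of all probes (6.48% positive, 7.01% negative). For 2 injections against 1, 3 were called (Slc3a1 and Slc3a2 positive, Slc1a2 negative), against 10.4% (5.56% and 4.82%).

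The second Slc1a2 probe, made against a record of the GLT1a splice form and spotted 10 times, was well above background in 0 of 24 readings and was not tested. In the array files it lies at chr3:87889461-87889520, which is 4672 bases further along the plus strand than the brighter probe at chr3:87884789-87884848. All Slc1a2 results thus rest on 1 probe. Markers of the perivenous hepatocytes did not move as one. After hypophysectomy in males the glutamine synthetase Glul fell (-1.01 ± 0.13) and the cytochrome P450 Cyp2e1 rose (1.23 ± 0.09). After 2 GH injections Glul rose (0.86 ± 0.13) and Cyp2e1 fell (-0.87 ± 0.09). With 1 array left out that rise of Glul was 0.65 to 1.08, and its call was not kept in every case. In all, 1 of 7 tested perivenous markers rose and 4 fell in males, against 19% and 18.5% of all probes. In females 1 of these markers rose and 1 fell, against 17.9% and 18.5%. After 1 GH injection 0 of 7 rose and 3 fell, against 7.49% and 6.79% of all probes. After 2 injections 2 of these markers rose and 2 fell, against 15% and 15.8%. Their summed intensity ranged from 168000 to 331000 in intact males, 216000 to 377000 in intact females, 219000 to 390000 in hypophysectomised males and 211000 to 388000 in hypophysectomised females. After GH it was 183000 to 297000 and 154000 to 270000. The stem cell receptor gene Lgr5 was not well above background in any reading. The part of these cells in the Slc1a2 result was not tested.

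Slc38a2 encodes SNAT2, a system A carrier known to be induced by amino acid shortage and by hormones. The log2 levels of its brighter probe were 12.93, 12.95, 12.96 and 13.13 in intact males and 13.15, 13.22, 13.30 and 13.31 in intact females. Hypophysectomised males had 13.43, 13.63 and 13.83 as lowest, median and highest, and hypophysectomised females 13.61, 13.64, 14.01 and 14.22. The readings were 14.31 and 14.32 after 1 GH injection and 14.63 and 14.81 after 2. The GH pools were highest, the intact livers lowest, and the 2 hypophysectomised sexes overlapped.

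On this probe hypophysectomy raised Slc38a2 by 0.69 ± 0.10 in males (0.90 and 0.48, adjusted p = 0.0011) and by 0.68 ± 0.10 in females (0.91 and 0.46, adjusted p = 0.00116). GH raised it further, by 0.68 ± 0.10 after 1 injection (0.67 and 0.69, adjusted p = 0.00363) and by 1.08 ± 0.10 after 2 (1.05 and 1.11, adjusted p = 0.000104, 2.12-fold). Without the second array the 1-injection value was 0.53 ± 0.14 (adjusted p = 0.114). Under median centring the 2-injection value was 0.60 ± 0.28 (adjusted p = 0.413). The difference between 2 injections and 1 was 0.40 ± 0.14 and was not called (adjusted p = 0.111). The sexes had ratios of -0.21 ± 0.10 when intact and -0.22 ± 0.10 when hypophysectomised, both not called (adjusted p = 0.197 and 0.371).

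The 2 probes of Slc38a2 gave like results for GH and unlike ones for hypophysectomy. In the array files they lie on the minus strand at chr7:135441972-135442031 and chr7:135446583-135446642, so the dimmer probe is 4611 bases upstream of the brighter. The dimmer probe rose by 0.35 ± 0.08 after 1 injection (0.15 and 0.55, adjusted p = 0.0261) and by 0.81 ± 0.08 after 2 (0.68 and 0.94, adjusted p = 0.000196). After hypophysectomy it had -0.18 ± 0.08 in males (-0.18 and -0.17, adjusted p = 0.129) and 0.10 ± 0.08 in females (0.13 and 0.07, adjusted p = 0.377), so that the rise seen with the brighter probe was not called there. It was called for the sex difference of the response (-0.31 ± 0.08, adjusted p = 0.0446) and for 2 injections against 1 (0.45 ± 0.12, adjusted p = 0.0462). Without 1 array the 1-injection call was lost (0.48 ± 0.11 without the first, 0.23 ± 0.11 without the second, adjusted p = 0.0921 and 0.368). The difference between 2 injections and 1 was lost without any 1 of its 4 arrays (0.33 to 0.58, adjusted p 0.0831 to 0.311). That between the sexes was lost without 6 of its 8 arrays (-0.34 to -0.23, adjusted p 0.0839 to 0.164), and called without the first array of hypophysectomised with intact males or the second of hypophysectomised with intact females (-0.36 and -0.38). Under median centring the 2-injection value of this probe was 0.48 ± 0.29, the sex difference -0.19 ± 0.29 and the difference between injections 0.18 ± 0.40, none of them called (adjusted p 0.51 to 1). The rise of Slc38a2 after hypophysectomy therefore rests on 1 of its 2 probes, and why they differ was not tested.

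**Figure D3:**
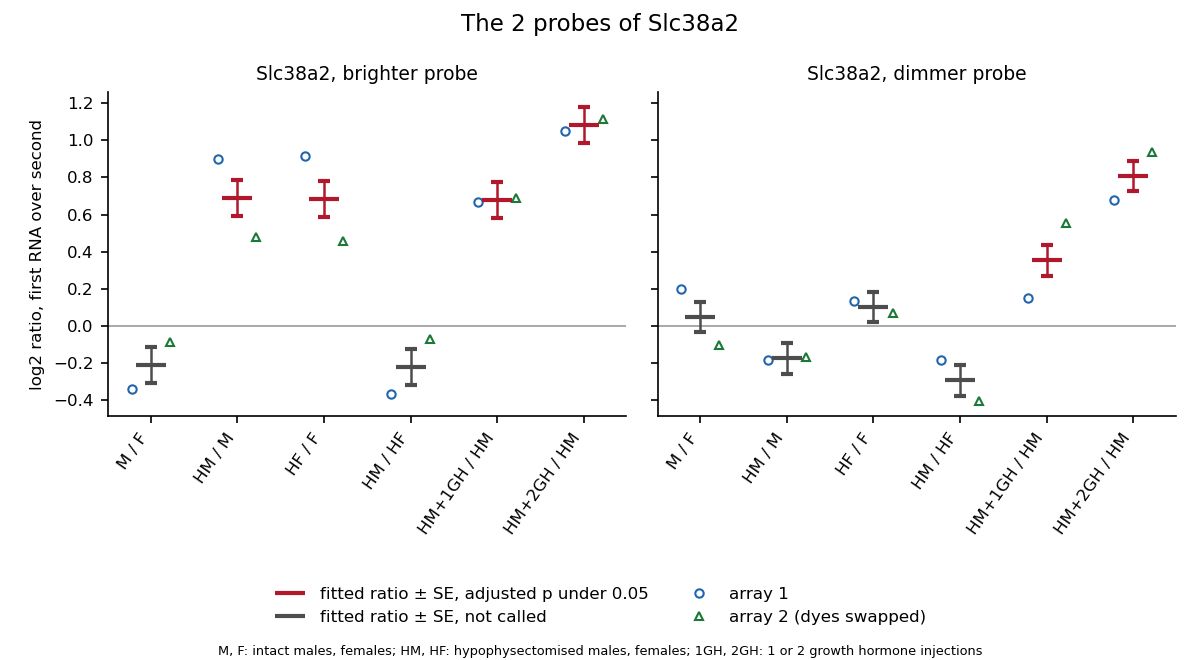
Log2 ratios (y axis) of the brighter (left) and the dimmer (right) Slc38a2 probe in the 6 comparisons (x axis), as array values (circle, triangle) and fitted ratio ± SE (bar, red where called). Both probes are called after 1 and 2 GH injections, and the brighter one alone after hypophysectomy (0.69 and 0.68 against -0.18 and 0.10).

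Slc38a4, the system A carrier SNAT4 that is found mainly in liver, was higher in intact males than in intact females. Its log2 levels were 15.12, 15.20, 15.25 and 15.30 in intact females, lower than the 15.63, 15.78, 15.87 and 15.88 of intact males. Hypophysectomised females had 15.65 to 15.88 and hypophysectomised males 15.58 to 16.12, both overlapping intact males and lying above intact females. The readings were 15.33 and 15.52 after 1 GH injection and 15.10 and 15.20 after 2, the last pair within the female range or below it. The ratio of males to females was 0.59 ± 0.16 (0.42 and 0.75, adjusted p = 0.0388). In females hypophysectomy gave 0.48 ± 0.16 (0.35 and 0.62, adjusted p = 0.0425), in males -0.04 ± 0.16 (-0.17 and 0.09, adjusted p = 0.854). The difference between these responses was -0.49 ± 0.16 and was not called (adjusted p = 0.0817). It fell with 2 GH injections (-0.67 ± 0.16, -0.37 and -0.97, adjusted p = 0.0119) and had -0.37 ± 0.16 after 1 (adjusted p = 0.159).

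These Slc38a4 calls depend on single arrays and on the design. Between the intact sexes the call was lost without the first array (0.67 ± 0.25, adjusted p = 0.222) or the second (0.51 ± 0.25, adjusted p = 0.354). In hypophysectomised females it was lost without the first (0.76 ± 0.21, adjusted p = 0.0522) or the second (0.21 ± 0.21, adjusted p = 0.526). After 2 injections it was lost without the second (-0.43 ± 0.22, adjusted p = 0.253). With the slide as a block the values were 0.45 ± 0.15 between the intact sexes and 0.35 ± 0.15 in hypophysectomised females, both not called (adjusted p = 0.0945 and 0.107). Under median centring the ratio of the intact sexes was 0.34 ± 0.43 and that after 2 injections -1.19 ± 0.43 (adjusted p = 0.907 and 0.301).

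Slc38a3, the system N carrier SNAT3 that moves glutamine, histidine and asparagine, showed small differences. Its log2 levels were 11.28 to 11.53 in intact females, 11.34 to 11.53 in intact males, 11.38 to 11.76 in hypophysectomised females and 11.22 to 11.40 in hypophysectomised males. The readings were 11.54 and 11.68 after 1 GH injection and 11.32 and 11.35 after 2, so that all 6 RNAs overlap with at least one other. Hypophysectomy in males gave -0.20 ± 0.06 (-0.26 and -0.15, adjusted p = 0.0395), with a direction that turned to 0.03 ± 0.32 under median centring (adjusted p = 0.98). That call was lost without the first array (-0.17 ± 0.10, adjusted p = 0.251) or the second (-0.23 ± 0.10, adjusted p = 0.11). GH given once gave 0.30 ± 0.06 (0.28 and 0.32, adjusted p = 0.019), lost without the first array (0.28 ± 0.10, adjusted p = 0.231) or the second (0.32 ± 0.10, adjusted p = 0.183). The difference of the hypophysectomy response, males minus females, was -0.32 ± 0.06 (adjusted p = 0.0145). Without the second array of hypophysectomised with intact females, of the hypophysectomised sexes or of the intact sexes it was -0.27, -0.30 and -0.27 (adjusted p 0.057 to 0.062). Under median centring it was -0.19 ± 0.32 (adjusted p = 1).

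Slc6a6, the taurine transporter, fell with hypophysectomy in both sexes. Its log2 levels were 8.41, 8.53, 9.11 and 9.16 in intact females and 8.30, 8.32, 9.19 and 9.35 in intact males. Hypophysectomised females had 7.48, 7.61, 7.69 and 7.87, and hypophysectomised males 7.74, 7.89 and 8.04 as lowest, median and highest. Every intact reading was above every hypophysectomised one. The readings were 7.80 and 7.87 after 1 GH injection and 7.90 and 7.92 after 2, within the range of hypophysectomised males.

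The fall of Slc6a6 was -0.83 ± 0.14 in males (-1.26 and -0.39, adjusted p = 0.00298) and -1.02 ± 0.14 in females (-1.24 and -0.79, adjusted p = 0.00114, 2.02-fold). Between the sexes it differed by 0.19 ± 0.14 (males minus females, adjusted p = 0.452). The ratios after GH were -0.10 ± 0.14 and -0.03 ± 0.14. In the intact livers of each sex the 2 higher readings (9.11 to 9.35) came from the first arrays of their comparisons, which lie on 1 slide, and the 2 lower ones (8.30 to 8.53) from the second arrays on another slide. In females both sets hold each dye, in males dye and slide coincide. The hypophysectomised male readings on the same slides were 7.80 and 7.93 on the first and 7.74 and 7.91 on the second, with no such gap, and the hypophysectomised female readings were 7.69 and 7.87 on the first and 7.48 and 7.61 on the second. Slide and pool cannot be told apart for this gap, and without the first array the fall in males was -0.49 ± 0.14 (adjusted p = 0.0447). Of 3 erythroid markers on the arrays, 2 fell and 1 rose with hypophysectomy in each sex. Of all probes, 18.5% fell in each sex, and 19% rose in males and 17.9% in females. The beta globin gene Hbb had -3.69 ± 0.24 in males and -1.48 ± 0.24 in females. The summed intensity of the 3 markers was 8070 to 14500 in intact males and 805 to 1900 in hypophysectomised males. It was 7430 to 11200 in intact females and 2860 to 4400 in hypophysectomised females. With GH it was 4020 to 4120 after 1 injection, where 2 of 3 rose, against 7.49% of all probes. After 2 injections it was 2160 to 2220, where 2 rose and 1 fell, against 15% and 15.8%. The part of erythroid cells in the Slc6a6 result was not tested.

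Slc7a2, the carrier CAT2 of arginine, lysine and ornithine, fell after hypophysectomy in males. Its log2 levels were 8.17 to 8.32 in intact females and 8.28 to 8.42 in intact males, above the 7.62 to 8.10 of hypophysectomised males. The range of 7.79 to 8.18 in hypophysectomised females overlaps intact females. After GH the readings were 7.84 and 7.88, and 7.92 and 7.79, within the hypophysectomised male range. The ratio was -0.46 ± 0.13 in males (-0.60 and -0.32, adjusted p = 0.0276), and without the first array -0.27 ± 0.18 (adjusted p = 0.313). Under median centring it was -0.28 ± 0.26 (adjusted p = 0.702). In females it was -0.33 ± 0.13 (-0.53 and -0.14, adjusted p = 0.0856), and -0.44 ± 0.13 with the slide as a block (adjusted p = 0.0376). The other 4 ratios lay between -0.06 and 0.09.

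The 4 RNAs of the intact and hypophysectomised sexes form a closed loop of comparisons, in which the ratios of each transporter should sum to 0. The sums of the 9 tested probes lay between -0.08 and 0.09, where the median absolute sum of all probes was 0.0557.

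Other plasma membrane amino acid transporters were counted from a list of 26, of which 24 are on the array and 15 were well above background in all 24 readings. Hypophysectomy in males raised 3 and lowered 5 of 18 tested, against 19% and 18.5% of all probes. In females it raised 2 and lowered 4 of 17, against 17.9% and 18.5%. Slc16a10, the aromatic amino acid carrier, rose by 1.69 ± 0.26 in males and 0.83 ± 0.26 in females and was lower in intact males than in intact females (-1.03 ± 0.26). It had -1.84 ± 0.26 after 2 GH injections. The large neutral amino acid carrier Slc43a1 fell by 1.03 ± 0.08 in males and 0.98 ± 0.08 in females and rose with 1 GH injection (0.43 ± 0.08). The betaine and GABA carriers Slc6a12 and Slc6a13 fell in both sexes, with Slc6a13 at -0.73 ± 0.07 in males and -0.62 ± 0.07 in females. The median of the list was -0.08 in males and -0.05 in females. Leaving out 1 array ended the call of Slc16a10 between the intact sexes and in hypophysectomised females, of Slc43a1 after 1 injection and of Slc6a12 in females.

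With 1 GH injection 3 of 18 in that list rose and 1 fell, against 7.49% and 6.79% of all probes. With 2 injections 4 of 19 rose and 3 fell, against 15% and 15.8%. After 2 injections the rises with the highest ratios were those of the glutamate carrier Slc1a3 (0.89 ± 0.24) and of the neutral amino acid carriers Slc1a4 (0.63 ± 0.10) and Slc1a5 (0.63 ± 0.07), and Slc43a2 fell (-1.10 ± 0.10). Between the intact sexes 1 of 18 was higher in males, Slc43a2 at 0.80 ± 0.10, and 4 were lower, against 8.07% and 7.42% of all probes. Between the hypophysectomised sexes limma called 0 of 18 (4 at an unadjusted p under 0.05), against 0.949%. List medians were -0.03 and -0.04 for these sex comparisons, and 0.08 and 0.05 for 1 and 2 injections. The calls of Slc1a3 and Slc1a4 after 2 injections were lost when 1 array was left out (adjusted p up to 0.293 and 0.0554).

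Amino acid carriers of mitochondria and lysosomes fell after hypophysectomy for 4 of 7 tested in each sex and rose for 0. Of all probes, 18.5% fell in each sex, and 19% rose in males and 17.9% in females. The medians of the list were -0.38 in males and -0.22 in females. The mitochondrial aspartate and glutamate carrier Slc25a12 had -1.48 ± 0.07 in males and -1.12 ± 0.07 in females, and the ornithine carrier Slc25a15 had -0.60 ± 0.13 and -0.76 ± 0.13. The lysosomal arginine sensor Slc38a9 had -0.58 ± 0.05 in males, and the lysosomal cationic amino acid exporter Slc66a1 had -0.38 ± 0.08. With 1 GH injection 2 of 7 rose, Slc25a12 (0.50 ± 0.07) and Slc38a9 (0.27 ± 0.05), and 0 fell, against 7.49% and 6.79% of all probes. With 2 injections 1 of 8 rose, Slc25a15 (0.57 ± 0.13), and 1 fell, the mitochondrial glycine carrier Slc25a38 (-0.47 ± 0.08). The shares over all probes there were 15% and 15.8%. List medians were -0.04 and -0.05. Of the values given for these carriers, those of Slc25a12 after hypophysectomy and of Slc38a9 after hypophysectomy in males kept their call when any 1 array was left out, and the others did not.

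Enzymes that act on the transported amino acids changed in both directions, as 16 listed genes of which 14 were tested. After hypophysectomy 2 rose and 5 fell in males, against 19% and 18.5% of all probes. In females 4 rose and 3 fell, against 17.9% and 18.5%. The medians of the list were -0.27 in males and 0.22 in females. Between the intact sexes 3 were higher in males and 0 lower, against 8.07% and 7.42%, beside a Slc6a6 ratio of -0.01 ± 0.14. The taurine-forming enzyme Csad was at 3.19 ± 0.41 there, and the other two were the bile acid conjugating enzyme Baat (0.99 ± 0.09) and the cysteine dioxygenase Cdo1 (0.70 ± 0.14), and Csad fell in males with hypophysectomy (-2.64 ± 0.41). The tyrosine aminotransferase Tat rose with hypophysectomy in males (0.97 ± 0.10) and in females (0.63 ± 0.10) and fell with GH (-0.75 ± 0.10 once, -0.94 ± 0.10 after 2 injections). Arg1, the arginase of the urea cycle, fell after 2 injections (-1.21 ± 0.28), where 3 of 14 rose and 4 fell, against 15% and 15.8% of all probes. The calls of Cdo1, of Tat in females and after 1 injection, and of Arg1 were lost when 1 array was left out.

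Amino acid response genes, those induced through the transcription factor ATF4 when amino acids run short, rose after 2 GH injections for 6 of 12 tested, and 2 fell, with a median of 0.47. Of all probes, 15% rose and 15.8% fell there. The pseudokinase gene Trib3 rose by 2.32 ± 0.26, the asparagine synthetase Asns by 1.62 ± 0.09, Atf4 itself by 1.24 ± 0.05 and Cebpb, a partner of ATF4, by 0.62 ± 0.09, while the stress genes Ddit3 (-0.41 ± 0.07) and Nupr1 (-0.50 ± 0.13) fell. With 1 injection 2 rose (Atf4 by 0.62 ± 0.05 and Asns by 0.60 ± 0.09) and 1 fell, against 7.49% and 6.79% of all probes. The median of the list was 0.15. From 1 to 2 injections 4 of 12 were called higher, Trib3 (1.99 ± 0.37) and Asns (1.01 ± 0.13) among them, and 0 lower, against 5.56% and 4.82%. Without 1 array the calls of Trib3 for this difference, of Nupr1 after 2 injections and of Asns after 1 were lost.

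After hypophysectomy 2 of these 12 response genes rose and 8 fell in males, against 19% and 18.5% of all probes. In females 4 rose and 2 fell, against 17.9% and 18.5%. The medians of the list were -0.41 in males and 0.17 in females. The stress gene Nupr1 rose in males (1.90 ± 0.13) and females (1.69 ± 0.13), and Trib3 (-1.84 ± 0.26) and the serine synthesis enzyme Phgdh (-1.61 ± 0.29) fell in males. Between the intact sexes 4 were higher in males and 2 lower, against 8.07% and 7.42% of all probes. Phgdh was at 2.17 ± 0.29 there (not called without 1 of its arrays) and Asns at 1.44 ± 0.09. Most macrophage markers tested also differed between the intact sexes and after 1 GH injection. After 1 GH injection 5 of 6 were higher, against 7.49% of all probes (summed intensity 84100 to 87000, and 61000 to 72100 in hypophysectomised males). In intact males 5 of 6 were lower than in intact females, against 7.42% of all probes (62400 to 63900 and 76500 to 83800). After 2 injections the sum was 67000 to 72100 and limma called 0 of 6 (1 at an unadjusted p under 0.05), against 30.8%. After hypophysectomy limma called 0 of 6 markers in males (4 at an unadjusted p under 0.05), against 37.5%. In females 1 of 6 rose and 0 fell, against 17.9% and 18.5%. The part of macrophages in the transporter results was not tested.

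**Figure D4:**
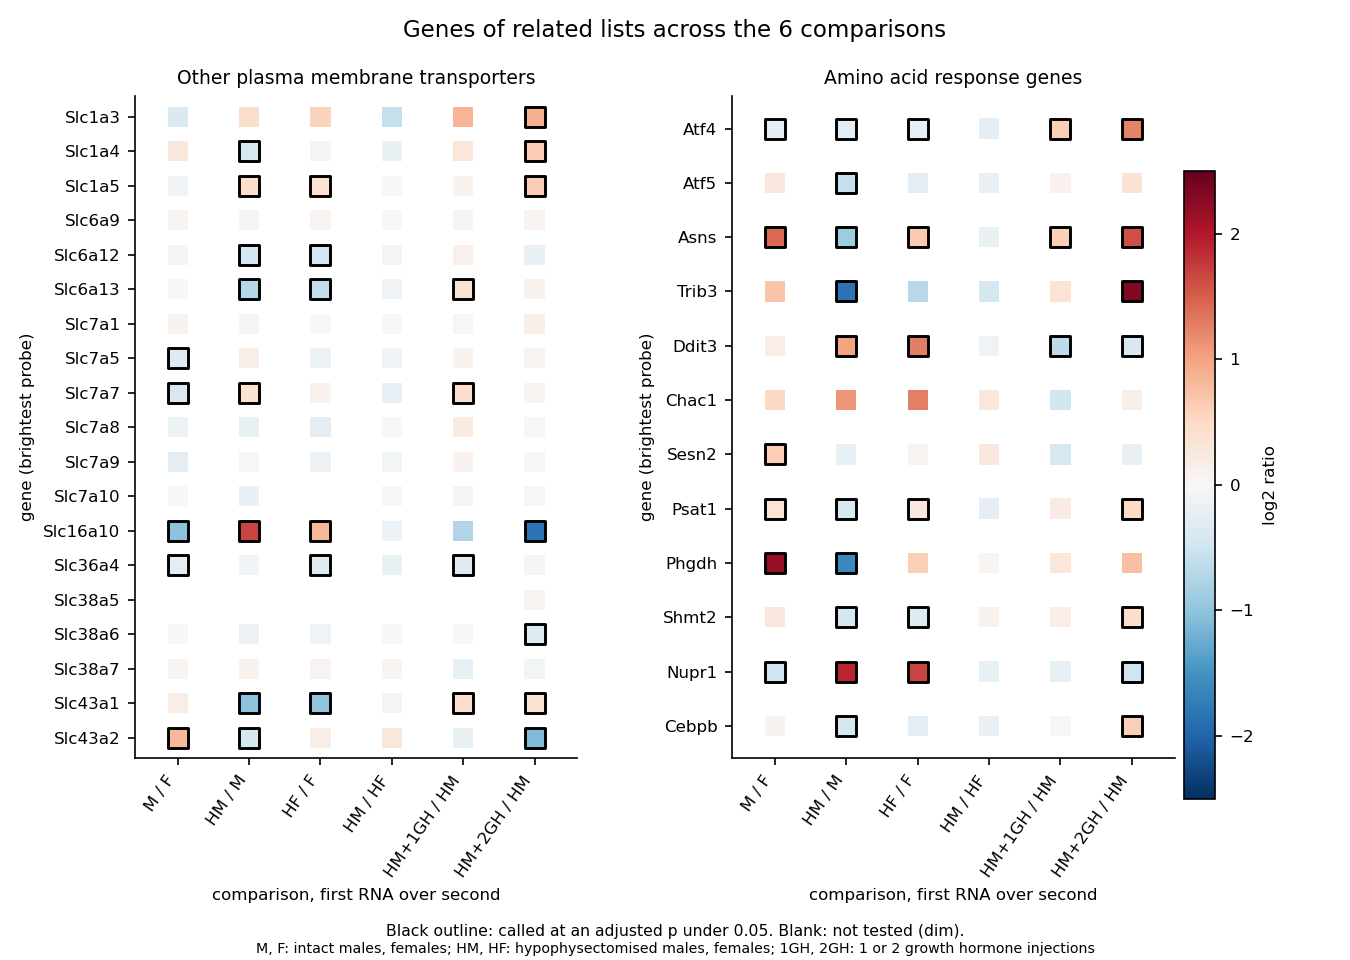
Log2 ratio (colour) of tested genes (y axis) in 2 lists, other plasma membrane transporters and amino acid response genes, in the 6 comparisons (x axis), with a black outline where called. Trib3, Asns and Atf4 are red after 2 GH injections, and Slc16a10 is red after hypophysectomy and blue after 2 injections.

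The genes whose pattern over the 12 arrays was most like that of the 3 transporters with the largest called ratios were picked by Pearson r among 10421 genes, as a description. For Slc3a1 they were Morn5 (r = 0.98), Lasp1 (0.98) and Pih1d2 (0.97). For Slc1a2 they were Spink1 (r = 0.99), Decr2 (0.98) and Snx14 (0.98). For Slc38a2 they were Rbm7 (r = 0.97), Vcam1 (0.97) and Dram2 (0.97). The arrays share RNAs and slides, so these are not 12 independent points. Spink1, a trypsin inhibitor gene, ran from -1.59 after 2 GH injections to 3.27 in hypophysectomised females against intact females, where Slc1a2 ran from -1.31 to 1.54.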

How the data were processed

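Per the file headers, the deposited scanner files were made with Agilent Feature Extraction 9.1.3.1 and give, for 45018 spots (1639 of them controls), the mean and the median background intensity in both colours, a processed intensity, and the log10 of its red to green ratio. The series' deposited value table was read as log2 of channel 2 over channel 1, because its values match the processed signals. Deposited flags mark spots well above background, saturated or outlying. Mean intensities were corrected with normexp (offset 50) and normalized by loess within arrays, with control and outlying spots at weight 0, using limma (3.58.1), R (4.3.3) and the R package data.table (version 1.17.8). The labels' dyes set the direction of each ratio, channel 2 over channel 1, and spots of a probe were averaged.

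A probe entered a comparison if at least one of its RNAs carried that first flag on each array (29008 probes in at least 1 comparison). One limma model covered the 12 arrays, with a coefficient per comparison and a dye term. It left 5 residual degrees of freedom, with a prior of 3.08 degrees of freedom and a prior SD of 0.101. P-values were adjusted by Benjamini-Hochberg over all probes that entered the comparison, and called at 0.05. The sex difference of the hypophysectomy response was the mean of its 2 direct estimates. The shared spread joins GH arrays, which reuse 1 treated pool on 1 slide, with arrays of different pools on 2 other slides, so that the SE of those others may be too small. Single-channel levels came from loess followed by quantile normalization of the average intensity (Aquantile), and are open to dye bias. On simulated data of the male and female comparison (29008 probes, 200 changed), 64% of changes of 0.5 and 98% of changes of 1 on the log2 scale were called, with 4 false calls. Fewer probes were changed there than the 15.5% called between the real intact sexes. These figures therefore do not give the error rate of the calls reported here.

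The members, gene lists and markers were chosen from general knowledge of liver with earlier results of these data known. From each list up to 4 called genes per comparison with the largest ratio could be named, and a gene so named may be given in another comparison too. Light chains of Slc3a1 and Slc3a2 were named as partners, and Ddit3 and Nupr1 after 2 injections after their values were seen. Promoter windows and their coordinates are from RefSeq (GRCr8), matched by symbol. The symbols of 9 member probes were matched through accessions and that of 1 through the symbol. Samples were grouped by their titles. Whether same-numbered arrays deviate together was checked: the correlations of their deviations between comparisons ran from -0.68 to 0.86, with 6 of 15 above 0.1. The sign of such a correlation also depends on the side of the ratio an RNA is on, and outside the GH arrays the number coincides with the slide, so this check does not settle the pairing. The labels name no pairing, and the block is given as an alternative. Alternatives were median centring, the processed signals, the value table, a smaller offset, other filters on dim probes, other designs and leaving out each array.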

Additional observations from a re-analysis of the deposited data

Results flagged for a closer look

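Differences between 2 responses passed their own test for 4 transporters by the brightest probe and for the dimmer Slc38a2 probe. The hypophysectomy response in males minus that in females was -1.17 for Slc1a2 (0.37 in males, 1.54 in females), -0.32 for Slc38a3 (-0.20 and 0.12) and -0.31 for the dimmer Slc38a2 probe (-0.18 and 0.10). The response to 2 GH injections minus that to 1 was 1.26 for Slc3a1 (-0.65 and -1.90), 0.51 for Slc3a2 (0.53 and 0.02), 0.45 for the dimmer Slc38a2 probe (0.81 and 0.35) and -0.74 for Slc1a2 (-1.31 and -0.57). These values are on the log2 scale. For the sex differences the SE behind the test may be too small, since the 2 estimates of each share their kinds of RNA. The 1-injection animals were killed 30, 60 or 90 min after GH. For the 2-injection animals only the spacing of 3 or 4 h between injections is known here. The number of injections and the time after injection therefore cannot be told apart.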

How the results depend on the processing

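Of 27 called transporter values, 2 kept their call under every setting run, the rise of Slc3a1 after hypophysectomy in males (1.88 to 2.89) and in females (1.82 to 3.26), and 10 lost it under median centring alone. Centring each array on its median in place of loess kept the direction of 26 values and the size of 18 within 1.5 times, with an SE of 0.264 to 0.503 where it had been 0.0589 to 0.264. It ended 25 calls and left 1 transporter called after hypophysectomy in each sex (Slc3a1) and 0 in every other comparison, with between 0% and 1.52% of all probes called, and it turned Slc38a3 after hypophysectomy in males from -0.20 to 0.028. The cause was not tested. Between the intact sexes 1 transporter was called with no dye term, with the slide as a block and with the replicate block (10.1%, 14% and 12.2% of all probes). The replicate block ended 6 calls, those of Slc38a4 between the intact sexes and in hypophysectomised females, of Slc7a2 and Slc38a3 in hypophysectomised males, of Slc38a3 after 1 GH injection and of Slc3a1 after 2 (adjusted p 0.0553 to 0.104), and both differences called for the dimmer Slc38a2 probe (0.0641 and 0.0679). With this block, 1 transporter was called between the intact sexes (12.2% of all probes), 4 after hypophysectomy in males (29.6%) and 4 in females (29.7%). Between the hypophysectomised sexes 0 were called (0.323%), and after 1 and 2 GH injections 3 (10.9%) and 4 (26.9%). For the sex difference of the response 2 were called (11.6%), and for 2 injections against 1 there were 3 (8.51%). Fitted on their own arrays, 2 were called after hypophysectomy in males (10.3% of all probes), 1 for the sex difference (6.22%) and 1 for 2 injections against 1 (0.801%). With the spread estimated apart in arrays with and without GH, 1 was called for the sex difference (8.48% of all probes). For 2 injections against 1 there were 6, where the share of all probes called was 40.8% in place of 10.4%.

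Leaving out 1 array at a time called 1 transporter between the intact sexes, 4 to 5 after hypophysectomy in males, 4 in females, 0 between the hypophysectomised sexes, 1 to 3 after 1 GH injection, 3 to 4 after 2, 1 to 3 for the sex difference and 1 to 2 for 2 injections against 1. The count fell to 1 without the second 1-injection array and to 3 without the second 2-injection array. The processed signals and the value table each ended 4 calls, a filter requiring both RNAs well above background and the mean over the probes of a gene 0. With 2 arrays a comparison their number limits the precision, and Slc3a1 in intact females was near background. The dimmer Slc1a2 probe could not be measured. Of 125 called values of listed genes, 54 kept their call when any 1 array was left out and 4 under median centring, which turned the direction of 1, Shmt2 after 2 injections, with no call.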
